A study of Mus musculus with 6 samples.

Results

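The proteasome genes of whole mouse muscle were taken as every row of the deposited count table whose symbol begins with Psm, a letter from a to g and a digit, without pseudogenes. The pattern matched 49 rows, of which 1 (Psmb6-ps2) was a pseudogene, so 48 of the 13226 genes in the table are described. The muscles were TA (tibialis anterior) muscles of male C57BL/6 mice treated at 8 weeks of age and taken 7 days after an intramuscular injection. In 3 muscles the vector was AAV6:Yap-shRNA, an adeno-associated virus that delivers a short hairpin RNA against Yap, and in the other 3, called control here, the vector field names AAV6:LacZ-shRNA while the titles name an empty vector. Treated and control muscles were the opposite legs of 3 animals, so every control animal also carried the knockdown vector in its other leg. The treatment notes place the Yap-shRNA in a plasmid that also encodes eGFP behind a CMV promoter, and the promoter that drives the hairpin is not named there. They also list an empty vector without a reporter among the controls of the work, so which vector the control muscles received cannot be settled from the labels.

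The proteasome is the large protease that degrades ubiquitin-tagged proteins in the cytosol and nucleus, and in muscle it carries out much of the breakdown of contractile protein during atrophy. Its 20S core is a barrel of outer rings of alpha subunits (Psma genes) and inner rings of beta subunits (Psmb genes), some of which hold the catalytic sites, and the 19S regulator (Psmc and Psmd genes) binds ubiquitin chains, unfolds the substrate with its ATPases and feeds it into the core. Interferon-gamma induces alternative catalytic subunits, Psmb8, Psmb9 and Psmb10, which replace Psmb5, Psmb6 and Psmb7 in the immunoproteasome, while Psme genes encode activators that cap the core in place of the 19S.

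By role the 48 genes divided into 7 alpha subunits, 7 constitutive beta subunits, 3 inducible beta subunits, 6 ATPases and 11 non-ATPases of the 19S, 3 chaperones of 19S assembly (Psmd5, Psmd9 and Psmd10), 5 genes of activators, the inhibitor gene Psmf1, 4 chaperones of 20S assembly (Psmg1 to Psmg4) and Psmc3ip. Psmc3ip fits the symbol pattern but encodes a meiotic recombination factor and no subunit. The annotated genes Psma8, a testis subunit, and Psmb11, the thymus subunit, had no row in the table. All 48 members had the 60 counts over 6 libraries that the lowest gene of the table reached, so none was lost to a filter applied here.

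The knockdown was read first from Yap1, for which control muscles held 915, 781 and 833 reads, against 381, 311 and 495 after Yap-shRNA. All treated muscles lay below all controls, with a log2 fold change of -1.10 (SE 0.16). Over all genes the quasi-likelihood test of edgeR gave it an adjusted p of 0.436, and DESeq2 an adjusted p of 5.85e-07. The libraries held 11987167 to 12710393 reads, and members took 0.367 to 0.404% of them. Levels are given as CPM, counts scaled to library size with the TMM factors of edgeR.

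Promoters were searched for letters bound by factors that are known to act on proteasome genes or with Yap, because such letters are a feature that the choice of members by symbol did not use. A promoter here is the window from 250 bases before to 50 bases after the RefSeq start on GRCm38.p6, and 41 of the 48 members had one. TGACNNNGC, the core of the antioxidant response element that the factors Nfe2l1 and Nfe2l2 bind, was present on either strand in 6 of 41 windows (14.6%), against 12.5% of 27025 promoters of all genes. The 6 were those of Psmb5, Psmb6, Psmc6, Psmd9, Psmd12 and Psme4. CATTCC, the letters bound by the TEAD factors through which Yap acts on genes, was present in 3 of 41 (7.32%), against 14.6% of all promoters. Stretches of the pair of constitutive catalytic genes with TGACNNNGC and of the 3 members with the TEAD letters follow. The matched letters are in capitals and each stretch is written along the strand of its gene. GGAATG in the Psmd9 stretch is CATTCC on the other strand.
Psmb5, chr14:54618014-54618062, minus strand: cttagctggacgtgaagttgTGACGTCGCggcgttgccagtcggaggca
Psmb6, chr11:70525328-70525376, plus strand: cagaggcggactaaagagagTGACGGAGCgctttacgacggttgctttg
Psmb5, chr14:54618209-54618245, minus strand: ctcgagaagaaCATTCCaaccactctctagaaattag
Psmd8, chr7:29180754-29180799, minus strand: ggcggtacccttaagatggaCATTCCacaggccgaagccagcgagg
Psmd9, chr5:123228021-123228066, plus strand: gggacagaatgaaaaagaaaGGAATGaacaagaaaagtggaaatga

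The letters TGACNNNGC begin 47 bases before the start of Psmb5 and 9 bases before that of Psmb6. The TEAD letters begin 239, 106 and 149 bases before the starts of Psmb5, Psmd8 and Psmd9. The interferon-stimulated response element, searched as GAAA repeated after any 2 bases, was found in 5 of 41 windows (12.2%), those of Psmb3, Psmd4, Psmd9, Psme1 and Psmg4, against 3.49% of all promoters. TTCNNNGAA, the interferon-gamma activated site, was found in 3 of 41 (7.32%), against 8.47% of all. Of the inducible catalytic genes only Psmb8 held these letters, and none of the 3 held those of the interferon-stimulated response element in this window. Among the genes named in this search, the windows of Psmb8, Psmb9, Psmd9 and Psme1 lay wholly inside the gene as annotated by GENCODE. The bases before the annotated starts of these genes were not searched. CCAAT, bound by NF-Y, was in 14 of 41 (34.1%), against 37.9%. The TTCNNNGAA match in the Psmb8 window begins 97 bases before the RefSeq start.
Psmb8, chr17:34198078-34198126, plus strand: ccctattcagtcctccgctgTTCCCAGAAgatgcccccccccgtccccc

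Transcripts of the constitutive 26S proteasome, the core and the 19S regulator together, stood at nearly the same level in control and Yap-shRNA muscles. Summed over the 31 genes the level was 3344 ± 231.2 CPM (SD, n = 3) in control muscles, against 3316 ± 139.5 CPM (SD, n = 3) after Yap-shRNA. Over all 48 members it was 3887 ± 248.1 CPM (SD, n = 3) in control muscles, against 3853 ± 139.8 CPM (SD, n = 3) after Yap-shRNA. In the quasi-likelihood fit of edgeR an adjusted p under 0.05 was reached by none of the members and by 0% of all 13226 genes, and no member reached it by DESeq2 or the likelihood ratio test, which each called 5 of all genes. None had an unadjusted p under 0.05 either, against 1.75% of all genes, and the smallest of the 48 values was 0.193, that of Psmb8 (adjusted p = 1 by edgeR). In none of the 48 did the groups separate. Separation was rare over all genes too, with the Yap-shRNA muscles wholly above the control muscles in 2.56% and wholly below them in 2.71%. The log2 fold change was above 0 in 24 members and below 0 in 24, with a median of 0.001 against -0.003 over all genes. The members ranged from -0.35 in Psmc3ip to 0.23 in Psmb8 and Psmg3.

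A missed threshold does not show that levels were equal, so the 95% interval of each fold change was read as well. For 30 of 48 members (62.5%) the interval lay within 1.25-fold in either direction, against 20.8% of all genes, and for 42 (87.5%) within 1.5-fold, against 63.3%. Of the 31 constitutive 26S subunits 26 (83.9%) had an interval within 1.25-fold and all 31 had one within 1.5-fold. Psmc3ip was the only member whose interval was not within 2-fold. The standard errors of members ran from 0.08 to 0.30 with a median of 0.11, against 0.16 for all genes. Members were also more deeply counted, with a median of 72.0 CPM against 12.0 CPM for all genes, and the part of that in the narrower intervals was not tested.

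**Figure D1:**
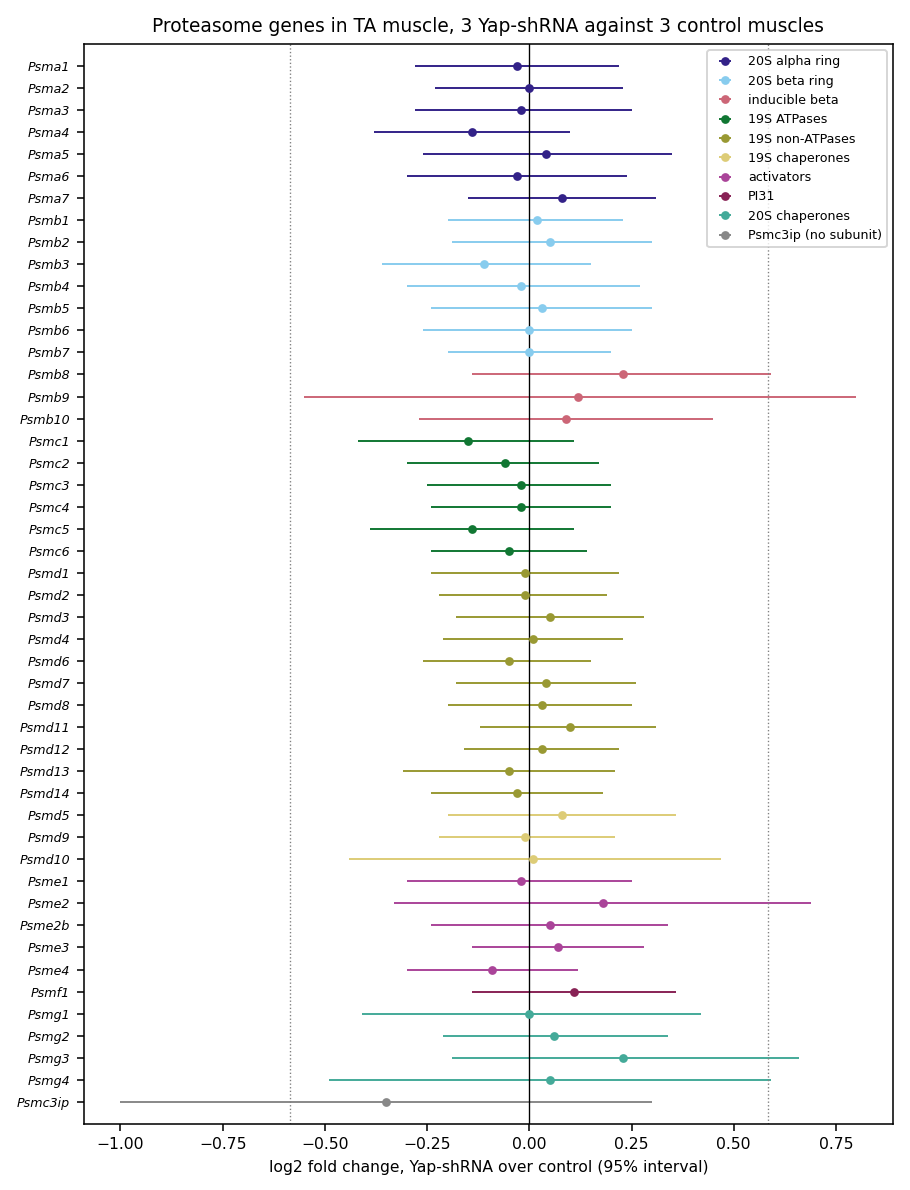
The plot of fold changes shows, for each of the 48 proteasome genes in rows, the log2 fold change of Yap-shRNA over control TA muscles (point) with its 95% interval from edgeR's quasi-likelihood fit (line), 3 muscles per group, coloured by role. Dotted lines mark 1.5-fold in either direction, every interval includes 0, and those that cross a dotted line belong to genes of low level such as Psmb9, Psme2 and Psmc3ip.

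Among the alpha subunits, which form the gated outer rings of the core, 2 of 7 were higher and 5 lower in Yap-shRNA muscles, with a median log2 fold change of -0.015. Psma7 had the highest value of the 7. It read 85.2, 94.7 and 89.1 CPM in control and 103.7, 85.0 and 95.4 CPM after Yap-shRNA, a log2 fold change of 0.08 (SE 0.10). Yap-shRNA muscles 1 and 3 were above the control range and muscle 2 just below it. Psma4, at the other end, read 40.6, 48.9 and 45.0 CPM against 44, 38.5 and 39.5 CPM, a log2 fold change of -0.14 (SE 0.11), and muscle 1 lay within the control range while the others were below it.

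The constitutive beta subunits lay between -0.11 and 0.05, 3 higher and 4 lower. Psmb5, which carries the chymotrypsin-like site, had 30.4, 40.0 and 37.5 CPM in control and 38.3, 33.8 and 38.0 CPM after Yap-shRNA, a log2 fold change of 0.03 (SE 0.12). The treated muscles fell inside the control range. Psmb6, with the caspase-like site, had 116.8, 151.1 and 123.7 CPM against 131.8, 128.4 and 130.0 CPM, and Psmb7, with the trypsin-like site, 114.9, 126.8 and 119.6 CPM against 126.3, 117.1 and 117.4 CPM. Their fold changes were so near 0 that the sign turned with the setting, as -0.0048 by the quasi-likelihood fit of edgeR and 0.004 by limma-voom for Psmb6. The treated values of both genes fell inside the range of the controls, of which control muscle 2 was the high one. Of the non-catalytic subunits of the ring, Psmb2 stood highest (0.05, SE 0.11) and Psmb3 lowest (-0.11, SE 0.11), the latter at 21.6, 26.8 and 24.8 CPM in control and 23.2, 21.3 and 23.5 CPM in Yap-shRNA muscles.

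All 6 ATPases of the 19S base, the ring that unfolds substrates, had a log2 fold change below 0, from -0.15 in Psmc1 to -0.02 in Psmc4, with a median of -0.056. None passed the test, and the sign count held under every scaling tried, total counts included, where the median was -0.039. It rested on control muscle 2, without which 3 of the 6 were above 0 and the median was -0.001. Without Yap-shRNA muscle 2, 2 of the 6 were above 0. Psmc1 read 67.7, 84.4 and 79.8 CPM in control muscles and 64.9, 65.2 and 78.3 CPM in Yap-shRNA muscles (SE 0.12, adjusted p = 1 by edgeR), so that treated muscles 1 and 2 lay below the controls and muscle 3 among them. Psmc5 was close to it in size, at -0.14 (SE 0.11), at 135.2, 174.2 and 146.1 CPM against 142.8, 137.1 and 133.4 CPM. Psmc4 had 104.5, 122.2 and 108.5 CPM against 110.7, 104.3 and 115.0 CPM.

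The 11 non-ATPases of the 19S, which include ubiquitin receptors and the deubiquitinase Psmd14, stood close to 0. Their log2 fold changes ran from -0.05 to 0.10, 6 above 0 and 5 below, and all 11 intervals lay within 1.25-fold. Psmd11, a scaffold subunit of the 19S lid, was the highest (0.10, SE 0.09). It read 62.3, 62.2 and 71.5 CPM in control and 69.1, 69.3 and 71.1 CPM in Yap-shRNA muscles, where control muscle 3 stood above all treated ones and the other controls below them. Psmd6, another lid subunit, was the lowest (-0.05, SE 0.09) at 130.3, 144.6 and 140.6 CPM against 141.3, 127.2 and 132.0 CPM. Psmd12 varied least of all members, with its highest muscle 1.07 times its lowest.

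Chaperones that assemble the particle were present at lower levels. Psmd5, a chaperone of the 19S base, had 18.3, 19.1 and 20.9 CPM in control and 17.8, 21.1 and 22.6 CPM in Yap-shRNA muscles (0.08, SE 0.12), and Psmd9, another base chaperone, read 25.8, 27.6 and 27.2 CPM against 28.4, 25.2 and 26.6 CPM (-0.01, SE 0.10). Neither separated the groups. The 4 genes of 20S assembly chaperones all had values above 0, from 0.00 in Psmg1 to 0.23 in Psmg3, yet only 1 of the 4 did without control muscle 1 and 2 without Yap-shRNA muscle 3. Psmg3 read 4.98, 6.94 and 4.84 CPM in control and 6.96, 6.53 and 6.22 CPM in Yap-shRNA muscles (SE 0.19, adjusted p = 1 by edgeR), where control muscle 2 lay among the treated muscles. Psmg3 shares 280 nucleotides with Gm26938 on the same strand, and 22.7% of its stretches of 50 bases also occur in that gene. Psmd9 shares 1849 nucleotides with Gm26745 on the opposite strand. Reads in these parts could not be assigned with certainty. Pomp, the maturation factor of the core and no member by symbol, was at 76.5 ± 3.11 CPM (SD, n = 3) in control and 79.6 ± 3.73 CPM (SD, n = 3) after Yap-shRNA, a log2 fold change of 0.06 (SE 0.09).

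The inducible catalytic subunits were all slightly higher in Yap-shRNA muscles, by 0.09 to 0.23 on the log2 scale, and none passed the test. Psmb8 and Psmb9 lie in the class II region of the mouse MHC, Psmb8 at chr17:34197721-34201454 on the plus strand and Psmb9 at chr17:34181987-34187764 on the minus strand (GRCm38), and Psmb10 at chr8:105935735-105938444 on the minus strand. Psmb8, which takes the place of Psmb5, read 6.85, 7.19 and 5.58 CPM in control muscles and 8.14, 7.68 and 7.18 CPM after Yap-shRNA, a log2 fold change of 0.23 (SE 0.16, 95% interval -0.14 to 0.59). The groups touched, with treated muscle 3 a little under control muscle 2. Psmb9, which takes the place of Psmb6, read 6.46, 4.60 and 3.28 CPM against 5.62, 6.60 and 3.43 CPM, a log2 fold change of 0.12 (SE 0.30). It was the member that varied most between muscles, with 2.01 times as much in the highest as in the lowest, and each group held both high and low muscles. Psmb10, the counterpart of Psmb7, read 13.0, 19.6 and 14.1 CPM against 16.5, 16.9 and 16.2 CPM, a log2 fold change of 0.09 (SE 0.16), and its treated muscles fell inside the control range. All 3 were above 0 under each scaling, whereas leaving out control muscle 1 turned Psmb10 below 0 and leaving out control muscle 3 or Yap-shRNA muscle 2 turned Psmb9 below 0.

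Whether the inducible subunits stood differently to those they replace was asked within each library, where scaling cancels. For every 100 reads of Psmb5 there were 22.5, 18.0 and 14.9 reads of Psmb8 in control muscles, against 21.3, 22.7 and 18.9 after Yap-shRNA, a difference of 0.20 in the log2 ratio (exact permutation test, two-sided, p = 0.4, 0.75 adjusted over 3 ratios). Per 100 reads of Psmb6 there were 5.53, 3.04 and 2.65 reads of Psmb9 against 4.26, 5.14 and 2.64, a difference of 0.12 (exact permutation p = 1, adjusted 1). Per 100 reads of Psmb7 there were 11.3, 15.4 and 11.8 reads of Psmb10 against 13.1, 14.4 and 13.8, a difference of 0.11 (exact permutation p = 0.5, adjusted 0.75). The groups overlapped for all 3 ratios, and 3 muscles against 3 cannot give an exact p below 0.1. Per kilobase of transcript Psmb8 stood at 4.36, Psmb9 at 3.70 and Psmb10 at 12.2 CPM, against 40.4, 163.3 and 103.7 CPM for Psmb5, Psmb6 and Psmb7, so the constitutive form was the more abundant transcript at each site.

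**Figure D2:**
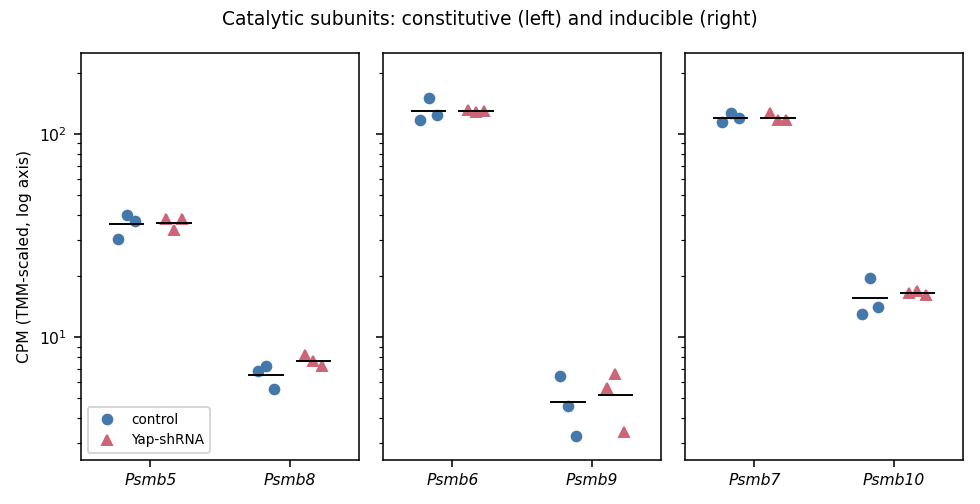
The plot of catalytic subunits gives CPM on a log axis for each constitutive subunit (left in each panel) and the inducible one that replaces it (right), with 1 point per muscle, circles for 3 control and triangles for 3 Yap-shRNA muscles, and a bar at each group mean. The groups overlap for all 6 genes, and Psmb9 spreads from 3.28 to 6.60 CPM.

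Immune cells carry much of the inducible subunits in most tissues, and in whole muscle more cells of a type and more RNA per cell cannot be told apart. The 10 markers of macrophages and other myeloid cells summed to 226.2, 140.5 and 89.9 CPM in control muscles and 156.6, 197.5 and 201.3 CPM in Yap-shRNA muscles, and 9 of the 10 had a fold change above 0 with a median of 0.29. None of the 6 T and B cell markers had a row in the table. The 5 class II markers summed to 297.3, 327.3 and 168.3 CPM against 259.0, 250.9 and 285.3 CPM. Control muscle 3 was the lowest for both lists, and it was also the lowest for Psmb8 and Psmb9. Psmb10 did not follow, being lowest (13.0 CPM) in control muscle 1, the muscle with the highest myeloid sum. The other inducible genes did not keep the order of the myeloid sums over all muscles either. Psmb9 was high in control muscle 1 (6.46 CPM) and Yap-shRNA muscle 2 (6.60 CPM). It was low (3.43 CPM) in Yap-shRNA muscle 3, where the myeloid sum was 201.3 CPM. Psmb8 was highest (8.14 CPM) in Yap-shRNA muscle 1, where that sum was 156.6 CPM. The 15 genes of interferon response and class I presentation summed to 507.6, 428.3 and 370.0 CPM in control and 503.4, 488.3 and 418.2 CPM in Yap-shRNA muscles, 10 of 15 above 0 with a median of 0.12. The part of these cells and signals in the values of the inducible subunits was not tested. Psmb9 shares 212 nucleotides with Tap1, the peptide transporter gene on the opposite strand, and Psmb8 shares 498 with the antisense gene Gm20496, so reads there could not be assigned with certainty.

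The activators gave 3 values above 0 and 2 below. Psme1 and Psme2 encode the alpha and beta chains of PA28, the cap that interferon-gamma induces with the immunoproteasome. Psme1 read 33.9, 38.1 and 38.6 CPM in control and 42.3, 33.3 and 33.2 CPM in Yap-shRNA muscles (-0.02, SE 0.12), with the treated muscles at both ends. Psme2 read 2.88, 2.93 and 3.45 CPM against 3.27, 2.84 and 4.39 CPM (0.18, SE 0.23), a wide interval from -0.33 to 0.69. Psme2b, a copy of Psme2 on another chromosome, read 10.2, 10.8 and 10.2 CPM against 10.2, 11.1 and 10.9 CPM (0.05, SE 0.13). Because 59.3% of the stretches of 50 bases in the Psme2 transcript and 69.3% of those in Psme2b also occur in another gene, reads could be split between them and both levels are uncertain.

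Psme3, which encodes the nuclear PA28-gamma, read 65.1, 73.4 and 68.0 CPM in control and 75.3, 72.3 and 69.0 CPM in Yap-shRNA muscles (0.07, SE 0.09). Psme4, which encodes the large activator PA200, had the most reads of any member before length was taken into account, with 297.0, 284.6 and 263.5 CPM against 266.1, 278.1 and 250.2 CPM (-0.09, SE 0.09). Its groups overlapped at control muscle 3. Psmf1, the gene of the inhibitor PI31, read 19.1, 18.8 and 18.1 CPM against 18.0, 21.1 and 21.5 CPM (0.11, SE 0.11), in which treated muscles 2 and 3 were above all controls and treated muscle 1 was just below them.

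Muscle by muscle the constitutive subunits tended to stand high or low together, and each group held muscles of both kinds. Of the 31 subunits 29 were above their own mean over 6 muscles in control muscle 2, at a median of 109.3% of that mean, and 26 were above it in Yap-shRNA muscle 1, at 103.8%. Only 4 of 31 were above it in control muscle 1 and 4 in Yap-shRNA muscle 2, both at 95.1%, with 12 in control muscle 3 and 17 in Yap-shRNA muscle 3. Part of this order came from the scaling. By total counts instead of TMM, control muscle 2 (24 of 31) and Yap-shRNA muscle 1 (25 of 31) were still the high ones, while control muscle 1 had 11 of 31 above the mean and control muscle 3 had the fewest, 7. The TMM factor of control muscle 1 was 1.0457, the highest of the 6.

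The sign count over members followed single muscles. Without control muscle 2, 37 of the 48 members were above 0 with a median log2 fold change of 0.070, and 2 of the 48, Psmb10 and Psmg3, had an unadjusted edgeR p under 0.05, against 2.36% of all genes in that fit. Without control muscle 1, 16 were above 0 and the median was -0.033. Without Yap-shRNA muscle 2, 32 were above 0. No member passed the adjusted threshold in any of these fits. The libraries also differed in material that is not muscle fibre. The 4 tendon markers summed to 634.6 CPM in control muscle 1 and 523.3 CPM in Yap-shRNA muscle 3 against 122.3 to 170.6 CPM in the others, and the 5 liver markers to 400.4 CPM in control muscle 3 against at most 47.2 CPM elsewhere. The 8 fibre markers summed to 149113 to 176032 CPM, highest in control muscle 2 and lowest in Yap-shRNA muscle 2, the same muscles in which the constitutive subunits stood highest and, level with control muscle 1, lowest. The other muscles did not keep this order. Yap-shRNA muscle 1, also high for the subunits, had 160885 CPM of fibre markers, below control muscle 3 (173496 CPM) and Yap-shRNA muscle 3 (174498 CPM). The part of these differences in the members' values was not tested.

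**Figure D3:**
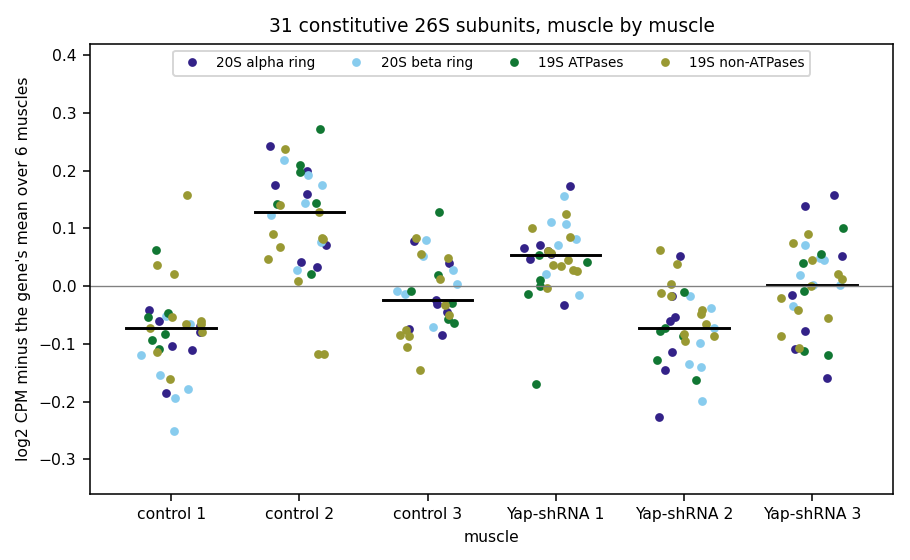
The plot by muscle gives, for each of the 31 constitutive 26S subunits (points, coloured by role), the log2 CPM minus the mean of that gene over 6 muscles, with a bar at the median of each muscle. Control muscle 2 stands highest with a median of 0.128 and control muscle 1 and Yap-shRNA muscle 2 lowest at -0.072, so each group holds a high and a low muscle.

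Subunits of the same particle had transcript levels that differed widely. Per kilobase of the principal transcript the 31 constitutive subunits ran from 8.75 CPM in Psma3 and 8.77 in Psma5 to 134.1 in Psmc3 and 163.3 in Psmb6. With the union of all annotated exons as the length the range was from 6.39 in Psma3 to 103.9 in Psmc5. Several of the low ones share sequence with other annotated genes. In 8 subunits (Psma3, Psma4, Psma5, Psmb3, Psmb5, Psmc1, Psmd2 and Psmd11) at least 10% of the stretches of 50 bases also occur in another gene, and these had a median of 33.7 CPM per kilobase, against 83.5 for the other 23. By the union of exons the medians were 14.3 and 44.5. Psmb5 shared 57.1% of its stretches, Psmb3 55.8% and Psma5 54.5%. How the counting treated reads that fit several places is not stated for this table, and its part in these levels was not tested. Psma2 was low as well, at 22.2 CPM per kilobase, with 3.53% shared.

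**Figure D4:**
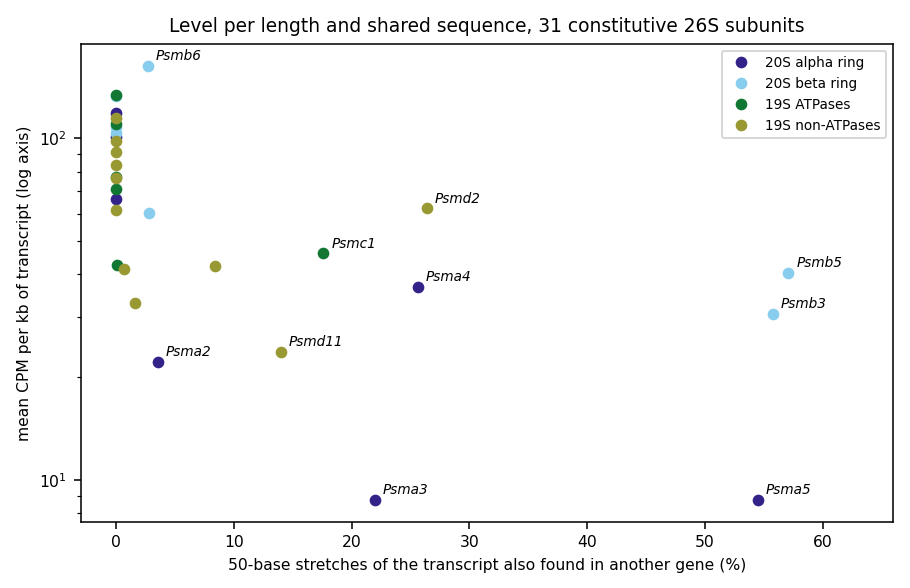
The plot of levels sets, for the 31 constitutive 26S subunits, the mean CPM per kilobase of principal transcript over 6 muscles (vertical, log axis) against the percentage of 50-base stretches that also occur in another gene (horizontal). The 8 subunits with at least 10% shared lie at or below 62.4, while those without shared sequence reach 134.1 and Psmb6, with 2.67% shared, 163.3.

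Genes that work with the proteasome were read from a separate list of 21 genes found in the table. Of these 12 were above 0 and 9 below, with a median of 0.02. The lowest was -0.20 in Ngly1, which removes glycans from Nfe2l1 during its activation. None had an unadjusted p under 0.05. Ube3a, a ubiquitin ligase that binds the proteasome, had all treated muscles below the controls (-0.10, SE 0.09, adjusted p = 1 by edgeR). Nfe2l1, the factor that raises proteasome gene transcription when proteasome activity falls, was at 613.5 ± 33.0 CPM (SD, n = 3) in control and 630.8 ± 15.8 CPM (SD, n = 3) after Yap-shRNA (0.04, SE 0.09). Nfe2l2 was at 37.2 ± 5.26 CPM and 36.3 ± 1.18 CPM (SD, n = 3 each), a log2 fold change of -0.04 (SE 0.12). The ubiquitin ligase genes of muscle atrophy, Trim63 (0.14, SE 0.10) and Fbxo32 (0.18, SE 0.14), were among 4 such genes that were all above 0 and of which none passed the test (edgeR adjusted p = 1).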

How the data were processed

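Polyadenylated RNA of 6 TA muscles, 3 control and 3 Yap-shRNA, was sequenced, and the authors deposited a table of raw counts for each gene. The submitters' processing notes name GRCm38 and bcl2fastq 2.20.0.422, while the aligner and counter of this table are not given in the sources used here. The smallest sum over 6 libraries was 60, so genes of low count had been removed before. The test was the quasi-likelihood fit of edgeR 4.0.16 in R 4.3.3 on TMM-scaled counts with group as its term, with Benjamini-Hochberg adjustment over 13226 genes and a threshold of 0.05. SE was the log2 fold change over the square root of F. The fit was tested on simulated data. Ratios used log2(count + 0.5). Alternatives were DESeq2 1.42.0, the likelihood ratio test, limma-voom (limma 3.58.1), upper-quartile and RLE scaling, other filters, a replicate block and leaving out each muscle. Total-count scaling and exon-union length were added after seeing the data.

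Members and lists were chosen with earlier results of these data known. Named genes were Yap1, the catalytic subunits of both kinds, Psme genes, Psmf1, the highest and lowest member of each other role, any member or associated gene with an unadjusted p under 0.05, Pomp, Nfe2l1 and Nfe2l2. Psmc5, Psmc3ip, Psmd12, Psma2, Psma3, Psma5, Psmc3, Ube3a, Ngly1, Trim63 and Fbxo32 were picked after their values were seen. Lengths and overlaps came from GENCODE M21 on GRCm38. The groups were opposite legs of the same animals, but nothing says whether the replicate numbers mark animals. The main test and the permutation tests therefore left the pairing of legs out. Their p-values, and the intervals, measure the spread between these muscles.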

Additional observations from a re-analysis of the deposited data

How the results depend on the processing

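No proteasome member passed the adjusted threshold in any fit. Over all genes DESeq2 and the likelihood ratio test each called 5, against 0 by edgeR's quasi-likelihood test (232 with an unadjusted p under 0.05), and leaving out 1 muscle gave 0 to 1. Unadjusted calls over all genes depended more on single muscles. They ran from 124 of 12858 genes without control muscle 3 to 925 of 12844 without control muscle 1, with 0 members among them in either fit. The setting without a filter removed no gene and was the same fit again. Of the 28 named genes in the other 13 settings, 331 fold changes kept their direction and their side of the threshold, 2 passed it (Yap1 by DESeq2, adjusted p = 5.85e-07, and by the likelihood ratio test, 2.22e-06) and 31 changed sign. Without leaving out a muscle these were Psmb7 at 0.0012 (DESeq2), 0.0002 (upper quartile) and 0.0012 (RLE), and Psmb6 at 0.004 (limma-voom) and 0.0036 (replicate block). Leaving out 1 muscle, the log2 fold change ran from -0.08 to 0.41 for Psmb9, -0.02 to 0.29 for Psmb10, -0.08 to 0.11 for Psmb5, -0.08 to 0.11 for Psmb6, -0.04 to 0.04 for Psmb7, -0.15 to 0.04 for Psme1, -0.01 to 0.31 for Psme2, -0.02 to 0.13 for Psmb2, -0.07 to 0.05 for Psmc4, -0.05 to 0.04 for Psmd9, -0.16 to 0.18 for Psmg1, -0.0033 to 0.07 for Nfe2l1 and -0.14 to 0.07 for Nfe2l2, and the log2 ratio of Psmb9 to Psmb6 from -0.08 to 0.44. Without a change of sign, the ratio of Psmb8 to Psmb5 ran from 0.05 (without control 3) to 0.35 (without control 1), that of Psmb10 to Psmb7 from 0.03 (without control 1) to 0.25 (without control 2), Psmb8 from 0.13 (without control 3) to 0.30 (without control 2) and Psmg3 from 0.14 (without control 3) to 0.42 (without control 2). The cause was not tested. Muscles of the same number deviated together in 1 of 3 pairs (correlations -0.0654, 0.1959 and -0.3153), so the numbers were not shown to pair them. A replicate block gave a member median of 0.008, 0 calls among members and 213 genes with an unadjusted p under 0.05. With 3 muscles a group, members of low count such as Psmb9, Psme2 and Psmc3ip could have differed by more than 1.5-fold unseen.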
